A study of Mus musculus with 8 samples.

Results

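Cndp2, Dgkz, Srebf1, Rrbp1, Lrrfip1, Klhdc4 and Ptpre are 7 of the 13378 genes in a table of exon junctions from mouse leukemia cells with and without Cop1, and they hold 157 of its 134051 junctions. They were picked because an earlier look at these data gave some of their junctions another share of the gene's reads in Cop1 knockout cells. Their junction shares and levels are therefore described without a test. FT1CL cells, an acute myeloid leukemia line, came from bone marrow of an 8-week-old mouse with a floxed Cop1 allele and a Cre-ERT2 at Rosa26, taken 5 days after 150 mg/kg 5-fluorouracil and transduced with a pMYs retrovirus carrying Trib1. The Cop1 KO group (genotype Cop1 ko/ko, cells treated with 4-hydroxytamoxifen) and the Cop1 WT group (genotype Cop1 +/+, no treatment) had 4 libraries each, so drug and genotype cannot be told apart. Both groups carry the Trib1 retrovirus and were grown in IMDM medium with interleukin-3 (5 ng/mL) and 10% serum. All libraries come from 1 line, and the labels do not say that they are separate cultures, so p-values below measure library-to-library spread only, part or all of which may be technical. Libraries are called KO1 to KO4 and WT1 to WT4 by their replicate numbers.

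A junction read spans the seam between a pair of exons, so it tells which exons were joined in an RNA. Many genes have several first exons, each with its own promoter, that splice into a shared later exon, and the choice among them sets the start of the RNA and often the first amino acids of the protein. Srebf1 is a textbook case, since its separate starts give SREBP-1a and SREBP-1c, membrane-bound precursors of transcription factors for fatty acid synthesis that differ in the length of their activation domain. Ptpre is another, with a receptor form and a cytosolic form of the tyrosine phosphatase PTP epsilon made from separate promoters.

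In the table each junction joins numbered blocks of a gene, so that E2.1-E4.1 joins region 1 of exon block 2 to region 1 of exon block 4, and a name with I stands for a block called intronic. The table carries no coordinates. Junctions were therefore matched, in block order, to the exons of Gencode release M21 on mm10 (GRCm38), where all 157 junctions of the 7 genes found an annotated exon pair. Block numbers were shifted where that matched more junctions, so the full count is partly made by the search. With numbers unchanged, and intron-named blocks not counted, 9 of 11 matched in Cndp2 and 21 of 26 in Rrbp1. In Lrrfip1 23 of 29 did, in Klhdc4 11 of 13, and in Dgkz, Srebf1 and Ptpre all. Positions and transcript names below come from that match. For Klhdc4 alone 2 matches were equally good, which differed in the place of block E12. In the one used, E12 and E13 fell on the same exon block, and so did E11 and I11. The junctions E11.2-E12.2 and I11.2-E13.1 therefore share an exon pair there.

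The libraries held 17333302 to 22469109 junction reads. Cop1 itself, the check of the labels, had 81.3, 70.3, 76.5 and 66.7 RPM (reads scaled by the library's total) in KO1 to KO4, against 159, 162, 166 and 162 RPM in WT1 to WT4, summed over its 19 junctions, so it was lower in every KO library and not absent. The 2 junctions of its block 3 averaged 1.11 ± 0.247 RPM in KO and 5.11 ± 0.285 RPM in WT, and the other 17 averaged 4.20 ± 0.369 RPM in KO and 8.95 ± 0.171 RPM in WT. KO4 and WT4 stood apart from the other libraries of their groups along the second principal component (19.2% of the variance), and KO4 lay nearer to the WT libraries along the first (49.4%). In KO 7 of 11 myeloid markers rose and none fell (limma), where 8.49% of all genes tested rose and 12.1% fell. Their summed level was 5687 to 10401 RPM in KO libraries, against 1971 to 4599 RPM in WT libraries. Of 7 tested markers of other cells Hba-a1 fell and none rose, and the sums over all 13 in the table were 927 to 1395 RPM in KO and 1136 to 1364 RPM in WT libraries. Col1a1, Col1a2, Cd79a and Klrb1c were at 0 in some libraries of each group, and no library had over 0.715 RPM of Cd3d. Others were read in every library of both groups. Itga2b had 515 to 892 RPM, Pecam1 236 to 429, Nkg7 23.4 to 114, Hbb-bs 0.842 to 121, Epcam 6.51 to 21.4 and Pf4 2.83 to 10.8 RPM. The part of these differences in the junction shares below was not tested.

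Some values in the table are far below what their junction had in other libraries. A value counts as dropped where it has 6 reads or fewer, the junction reached at least 100 scaled reads in some library, and the gene's other junctions that did so predict at least 100 in this one. Junctions that are low in all libraries, and genes with fewer than 3 junctions that reached 100 reads, were not assessed. Such dropped values touched 35 of the 157 junctions, in 5 of the 7 genes (2 in Cndp2, 6 in Dgkz, 9 in Srebf1, 13 in Rrbp1 and 5 in Klhdc4). A junction's share is its reads over the reads of all junctions of the gene without a dropped value. As a background, a test of junction use over the whole table (limma diffSplice) called 9 of 4698 genes, or 0.192%. Cndp2, Dgkz, Srebf1 and Lrrfip1 were among the 9, while Rrbp1, Klhdc4 and Ptpre were not. The junctions I2.2-E4.1 of Rrbp1 and E7.1-E8.1 of Klhdc4, described below, did not enter that test. Low reads kept out the first and dropped values the second. With dropped values kept the test called 145 genes, and blocking on replicate numbers it called 19. Of the 66 junctions of the 7 genes in that test, 4 had a higher share in every KO library than in any WT library, where the background is 1.78% of 35435 junctions, and 9 had a lower share in every KO library, where it is 1.88%. The genes were chosen by this contrast, so nothing is read from these counts.

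Per gene, the junction with the largest gain and the one with the largest loss of share are taken as its leading junctions. All 7 leading losses leave one of the first 5 blocks of their gene, and so do 4 of the 7 leading gains. For 9 of the 14 leading junctions the KO and WT libraries did not overlap. The 5 that overlapped were I2.2-E7.1 of Rrbp1, E28.1-E29.1 of Lrrfip1, E20.1-E21.1 of Ptpre and both of Klhdc4. Genes and leading junctions were both picked by this contrast, and the share of all junctions that leave the first 5 blocks was not computed. Nothing is therefore read from the counts of leading junctions.

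Srebf1 lies on chr11:60199089-60222581, on the minus strand, and 3 of its junctions lead from different first exons into block 4. The 30 bases around each are shown because they are what separates the starts, with the last 15 bases of the first exon in capitals and the shared start of block 4 in lower case.
Srebf1 E1.1-E4.1: AGCCTGCTGACACAGacatgctccagctca
Srebf1 E2.1-E4.1: TGAACGACATCGAAGacatgctccagctca
Srebf1 E3.2-E4.1: ATTGCACATTTGAAGacatgctccagctca
Block 2 is the first exon of transcript Srebf1-201 and holds 91 coding bases, the longer of these first coding exons, as known for SREBP-1a. Block 3 is the first exon of Srebf1-207 and holds 19 coding bases, as known for SREBP-1c. Block 1 opens the noncoding Srebf1-204.

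The block 3 start of Srebf1 was read less in KO cells, and the block 2 start was at a similar level in both groups. In bulk libraries such as these, fewer cells with a transcript and less of it per cell cannot be told apart. The junction E3.2-E4.1 had 2.44, 2.42, 3.46 and 3.87 RPM in KO1 to KO4, against 9.39, 8.97, 7.04 and 7.69 RPM in WT1 to WT4. Every KO library was below every WT library, and the means stood at 3.05 ± 0.733 RPM in KO and 8.27 ± 1.10 RPM in WT (SD, n = 4), a ratio of 0.368. E2.1-E4.1 had 15.5 ± 0.988 RPM in KO and 16 ± 1.26 RPM in WT, and E1.1-E4.1 had 2.17 ± 0.687 RPM in KO and 2.21 ± 0.493 RPM in WT. Both of these overlapped between the groups. Among the 3 junctions into block 4, block 3 gave 12.4, 12.2, 17.7 and 16.2% of the reads in KO1 to KO4, against 31.8, 34.0, 28.5 and 30.3% in WT1 to WT4. Block 2 gave 75.1 ± 3.01% of them in KO and 60.5 ± 3.43% in WT, again without overlap. These shares rest on 345 to 619 reads per library, and the 95% Wilson interval of a single library's share was at most 8.92 percentage points wide. Such intervals cover counting error only. As shares of the whole gene, E2.1-E4.1 stood at 17.8 ± 0.973% in KO and 13.3 ± 1.17% in WT, and E3.2-E4.1 at 3.48 ± 0.781% in KO and 6.85 ± 0.656% in WT. With dropped junctions in the denominator the differences were 2.07 and -2.34 points in place of 4.52 and -3.36. Further along the gene, the choice between E6.1-E7.2 and E6.2-E7.2 did not separate the groups, with 9.54 ± 2.36% for the first in KO and 9.62 ± 1.62% in WT.

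As the level ratio differed between the block 2 and block 3 starts, their promoters are shown from the RefSeq-based table of GRCm38.p6, 250 bases before to 50 bases after the start. Motifs were searched on both strands, as TTGCNNAA for C/EBP factors, as TGANTCA for the AP-1 family, as CCGGAAG for the ETS family, as CACGTG for the E-box, as TCACNCCAC for the sterol response element and as CCAAT for the box of that name. A match is in capitals. Only these letters were searched, so variants of a site that differ from them are missed, and no match does not mean no site. The block 2 promoter, at chr11:60220578-60220877 on the minus strand, held none of them.
Srebf1 block 2 promoter: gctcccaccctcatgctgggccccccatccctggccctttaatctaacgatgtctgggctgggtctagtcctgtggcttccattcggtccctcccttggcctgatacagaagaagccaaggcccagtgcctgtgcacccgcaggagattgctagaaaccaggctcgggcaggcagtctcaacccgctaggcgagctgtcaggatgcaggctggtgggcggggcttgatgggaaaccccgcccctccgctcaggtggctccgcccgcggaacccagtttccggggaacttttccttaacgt
The block 3 promoter, at chr11:60210422-60210721 on the minus strand, held 1 reverse CCAAT box, 30 bases before the start.
Srebf1 block 3 promoter: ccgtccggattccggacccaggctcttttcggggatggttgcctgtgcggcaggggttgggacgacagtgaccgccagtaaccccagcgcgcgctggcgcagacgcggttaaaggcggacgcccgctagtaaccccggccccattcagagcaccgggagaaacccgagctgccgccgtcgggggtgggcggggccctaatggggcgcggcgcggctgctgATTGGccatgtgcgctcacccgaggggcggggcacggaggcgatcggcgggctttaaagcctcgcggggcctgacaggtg
Of 32851 promoters of this length 37.4% hold CCAAT, 10.8% the C/EBP letters, 7.81% AP-1, 8.86% ETS, 7.15% the E-box and 1.24% the sterol response element letters. The RefSeq starts lie 23 bases from the Gencode start of block 2 and 6 bases from that of block 3. G and C made up 62.7% of the block 2 window and 70.7% of the block 3 window.

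Dgkz codes for diacylglycerol kinase zeta, which turns diacylglycerol into phosphatidic acid and so ends signalling by this lipid. It lies on chr2:91932824-91975864 on the minus strand, and blocks 1, 2, 3 and 5 each splice into block 6. Capitals mark the end of the alternative upstream exon.
Dgkz E1.1-E6.1: GCAGGTGTCATACAGgaaagccatcaccaa
Dgkz E2.2-E6.1: GGTTCCCCAGACACAgaaagccatcaccaa
Dgkz E3.2-E6.1: GCTCTTTGGGCACAGgaaagccatcaccaa
Dgkz E5.3-E6.1: GAGCACCCTGCTTATgaaagccatcaccaa
Blocks 1 and 3 open the coding transcripts Dgkz-202 (2838 coding bases) and Dgkz-201 (2787). Block 5 follows block 4 in the coding Dgkz-203 (3369 bases) and in Dgkz-211, which Gencode lists as a target of nonsense-mediated decay. The junction E4.2-E5.1 that both share had 1, 38, 6 and 2 reads in KO1 to KO4, against 1, 6, 1 and 2 reads in WT1 to WT4. It had fewer reads than E5.3-E6.1 in every library, and being shared it cannot tell the 2 transcripts apart. Gencode has 2 sequences for the join of block 5 to block 6. The one printed is that of Dgkz-203 and ends at the 3′ edge of block 5 (chr2:91945174). Regions within a block, such as E5.1 and E5.3, were not matched to transcripts. Block 2 opens Dgkz-206, listed as a decay target as well, with a coding stretch of 402 bases.

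The block 2 junction was the most read of the 4 in every KO library, and the block 5 junction was in WT1, WT2 and WT4 but not in WT3. E2.2-E6.1 had 8.14, 9.92, 10.0 and 12.9 RPM in KO1 to KO4, against 5.67, 7.22, 7.25 and 5.39 RPM in WT1 to WT4. E5.3-E6.1 had 3.27, 3.06, 3.77 and 5.21 RPM in KO1 to KO4, against 9.1, 12.5, 6.45 and 12.7 RPM in WT1 to WT4. Neither junction overlapped between the groups, with ratios of 1.61 for block 2 and 0.376 for block 5. E3.2-E6.1 was lower in every KO library too, at 0.691 ± 0.265 RPM in KO and 1.92 ± 0.383 RPM in WT, and E1.1-E6.1 overlapped at 1.53 ± 0.402 RPM in KO and 3.28 ± 1.56 RPM in WT. Among the reads into block 6, block 2 gave 59.9, 66.4, 60.8 and 62.6% in KO1 to KO4, against 28.8, 30.2, 39.5 and 21.1% in WT1 to WT4. Block 5 gave 23.2 ± 2.04% in KO and 45.9 ± 7.54% in WT. The shares rest on 259 to 463 reads per library. As a share of the whole gene the block 2 junction stood at 5.14 ± 0.520% in KO and 2.39 ± 0.610% in WT, a difference of 2.75 points that became 2.12 points with dropped junctions in the denominator. Block 2 can also skip to block 9 (E2.2-E9.2, in Dgkz-212), and this took 7.44 ± 3.12% of the reads leaving block 2 in KO and 11.2 ± 5.34% in WT, with overlap. At the other end, E28.1-E29.1 took 9.61 ± 2.87% of the reads from block 28 in KO and 5.18 ± 2.38% in WT, also with overlap.

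Lrrfip1, on chr1:90998737-91128944 of the plus strand, codes for a protein that binds nucleic acids and the actin regulator Flightless-1. Blocks 1 and 2 are first exons that both join block 3, with 96 coding bases in block 1 of Lrrfip1-201 and 66 in block 2 of Lrrfip1-202. Capitals again mark the alternative exon.
Lrrfip1 E1.1-E3.1: CAGATCGCGCGCGAGgcggaggccaggctc
Lrrfip1 E2.1-E3.1: GAGGCGCAAAGACTGgcggaggccaggctc
The block 1 junction had 4.78, 4.62, 4.44 and 4.67 RPM in KO1 to KO4, against 6.20, 6.0, 6.30 and 5.56 RPM in WT1 to WT4. The block 2 junction went the other way, with 13.3, 14.1, 11.4 and 11.7 RPM in KO1 to KO4, against 8.58, 8.87, 10.3 and 8.14 RPM in WT1 to WT4. Neither overlapped between groups. Block 1 thus gave 26.4, 24.6, 28.0 and 28.5% of the reads into block 3 in KO1 to KO4, against 41.9, 40.4, 38.0 and 40.6% in WT1 to WT4, on 244 to 371 reads per library. Downstream of block 3 the groups overlapped: the long jump E3.1-E15.1 took 87.9 ± 2.12% of the reads leaving block 3 in KO and 87.6 ± 2.51% in WT. The small alternative blocks from 5 to 15 averaged 7.19 ± 1.08% of the level of that jump in KO and 5.70 ± 0.578% in WT, with overlap. The leading gain of the gene, E28.1-E29.1, was small at 2.73 ± 0.591% of the gene in KO and 2.04 ± 0.891% in WT, and overlapped.

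Rrbp1 codes for the ribosome-binding protein p180 of the rough endoplasmic reticulum, whose long repeat region is known to hold ribosomes. It lies on chr2:143947395-144011263 of the minus strand. Here the alternative is downstream: block I2, an exon in Gencode, joins block 7 in Rrbp1-201 (24 exons, 4392 coding bases) or block 4, the last exon of Rrbp1-202 (3 exons, 2103 coding bases). Capitals mark the downstream exon that differs.
Rrbp1 I2.2-E4.1: aaaaaggagagcctgTGTGCTGATATTTTA
Rrbp1 I2.2-E7.1: aaaaaggagagcctgGGCCCCCAGATTGCG
The junction to the short form had 5.41, 6.81, 7.64 and 6.05 RPM in KO1 to KO4, against 3.43, 3.34, 5.18 and 3.03 RPM in WT1 to WT4. Every KO library lay above every WT library, with WT3 nearest. It took 19.8, 28.7, 24.8 and 19.9% of the reads leaving I2 in KO1 to KO4, against 12.5, 12.1, 18.4 and 11.1% in WT1 to WT4, on 411 to 685 reads per library. Its share of the gene was 1.41 points higher in KO, or 0.86 points with dropped junctions in the denominator. The junction to the long form stood at 21.6 ± 3.30 RPM in KO and 23.9 ± 0.639 RPM in WT and overlapped. Its share of the gene was 11.2 ± 0.870% in KO and 12.7 ± 0.675% in WT, and this difference of -1.498 points turned to 0.0464 points once the 13 junctions with dropped values entered the denominator. The weak junction E5.1-E6.1, found in Rrbp1-205, had 16 to 28 reads per library in KO and 7 to 13 in WT. The next junction of that transcript, E6.1-E7.1, did not separate the groups. It took 2.01 ± 0.621% of the reads entering block 7 in KO and 1.69 ± 0.717% in WT.

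**Figure D1:**
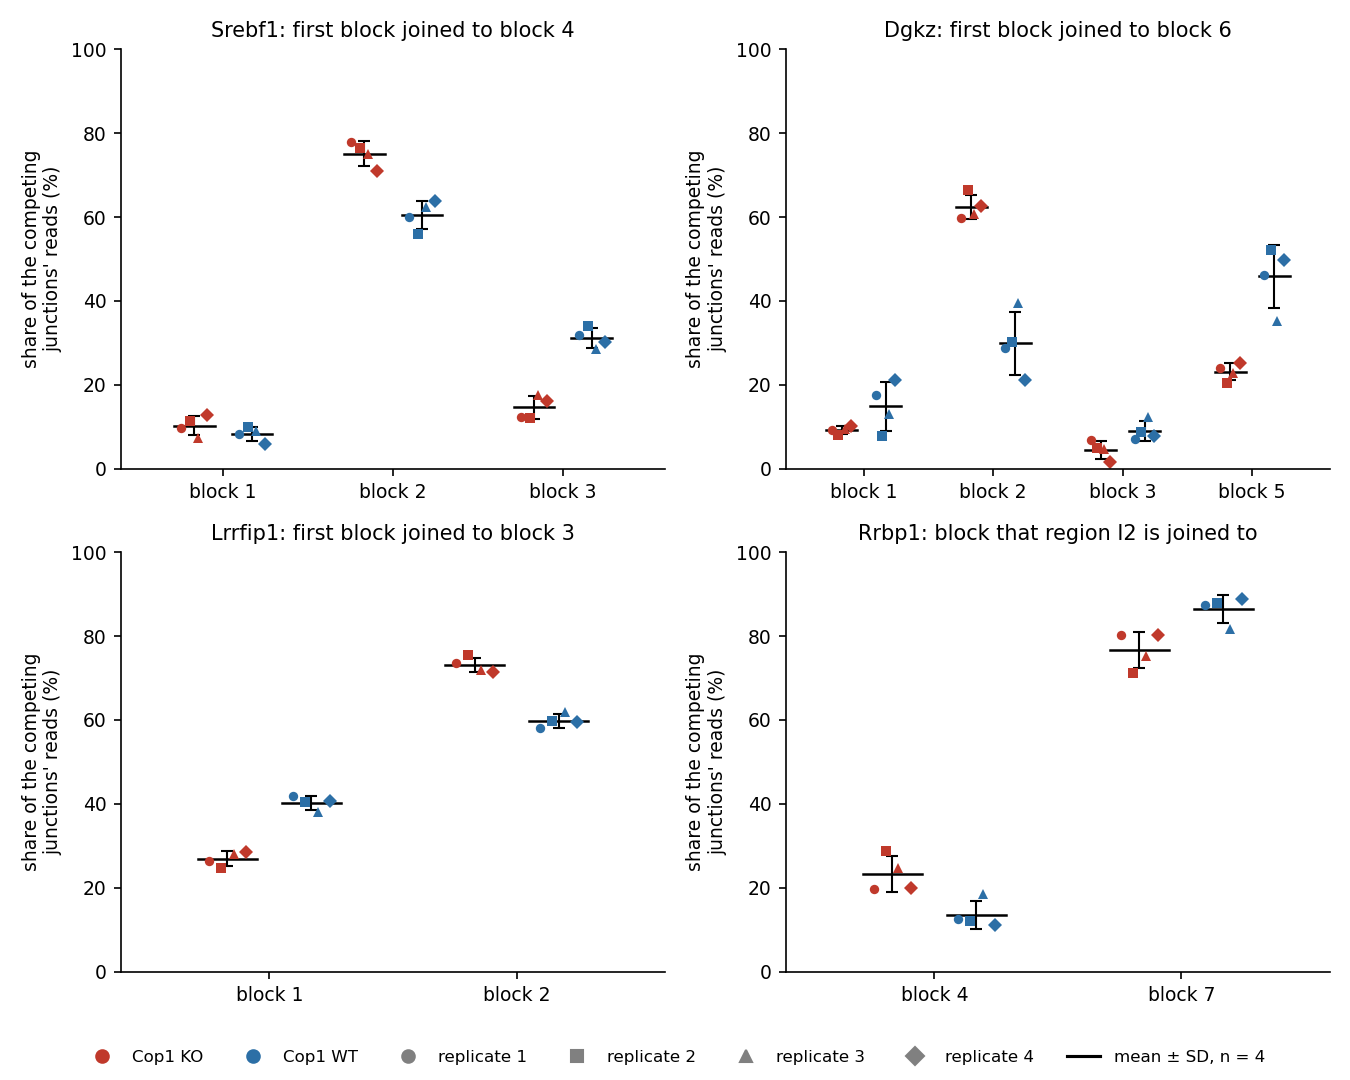
Share in percent of the reads of competing junctions that join the block named on the x axis to the shared block in each panel title, for 4 Cop1 KO (red) and 4 Cop1 WT (blue) libraries, with symbols for replicate numbers and bars for mean ± SD; the rare Dgkz junction E5.1-E6.1 is in the total but not drawn. KO and WT libraries do not overlap for blocks 2 and 3 of Srebf1, blocks 2, 3 and 5 of Dgkz, both blocks of Lrrfip1 and both of Rrbp1.

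Cndp2 codes for a cytosolic dipeptidase that cleaves many dipeptides and can also join lactate to amino acids. It lies on chr18:84667465-84685702 of the minus strand. Transcript Cndp2-201 starts in block 1 and Cndp2-202 in block 2, where its first exon of 222 bases holds 60 coding bases. Both code for the same length of 1425 bases. Gencode also lists transcripts without a coding stretch that start further down. Cndp2-205 starts in block 7, and Cndp2-204, Cndp2-207 and Cndp2-208 start elsewhere after block 3. The gene's level per library without dropped junctions was 262, 291, 292 and 234 RPM in KO1 to KO4, against 105, 111, 117 and 91.9 RPM in WT1 to WT4. The 6 junctions that leave blocks 7 to 12 were alike in this, with ratios of 2.32 to 2.64.

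The 5′ junctions of Cndp2 did not follow that ratio. E1.1-E2.2 had 6.05, 5.88, 6.71 and 6.54 RPM in KO1 to KO4, against 5.19, 4.78, 4.87 and 4.27 RPM in WT1 to WT4, a ratio of 1.32. E2.2-E3.1 had 14.5, 15.2, 18.6 and 12.2 RPM in KO1 to KO4, against 2.95, 1.43, 1.64 and 1.29 RPM in WT1 to WT4, a ratio of 8.27. In every KO library more reads left block 2 than entered it from block 1, and in every WT library fewer did. Set against the mean of the 6 later junctions, E2.2-E3.1 stood at 36.7 ± 3.79% in KO and 11.2 ± 4.88% in WT, and E1.1-E2.2 at 15.5 ± 2.16% in KO and 29.0 ± 2.65% in WT. As shares of the gene, E2.2-E3.1 had 5.52, 5.22, 6.37 and 5.23% in KO1 to KO4, against 2.81, 1.29, 1.40 and 1.41% in WT1 to WT4, with WT1 apart from the other WT libraries. The next junction, E3.1-E5.1, held 38 to 47 reads per library in KO and 2 to 17 in WT, far below the later junctions in both groups. Cndp2-201 and Cndp2-202 both hold E2.2-E3.1 and E3.1-E5.1, so these junctions do not tell the 2 starts apart. The part of the later starts in these levels was not tested. The junctions of blocks 5 to 7 had dropped values and are not used.

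**Figure D2:**
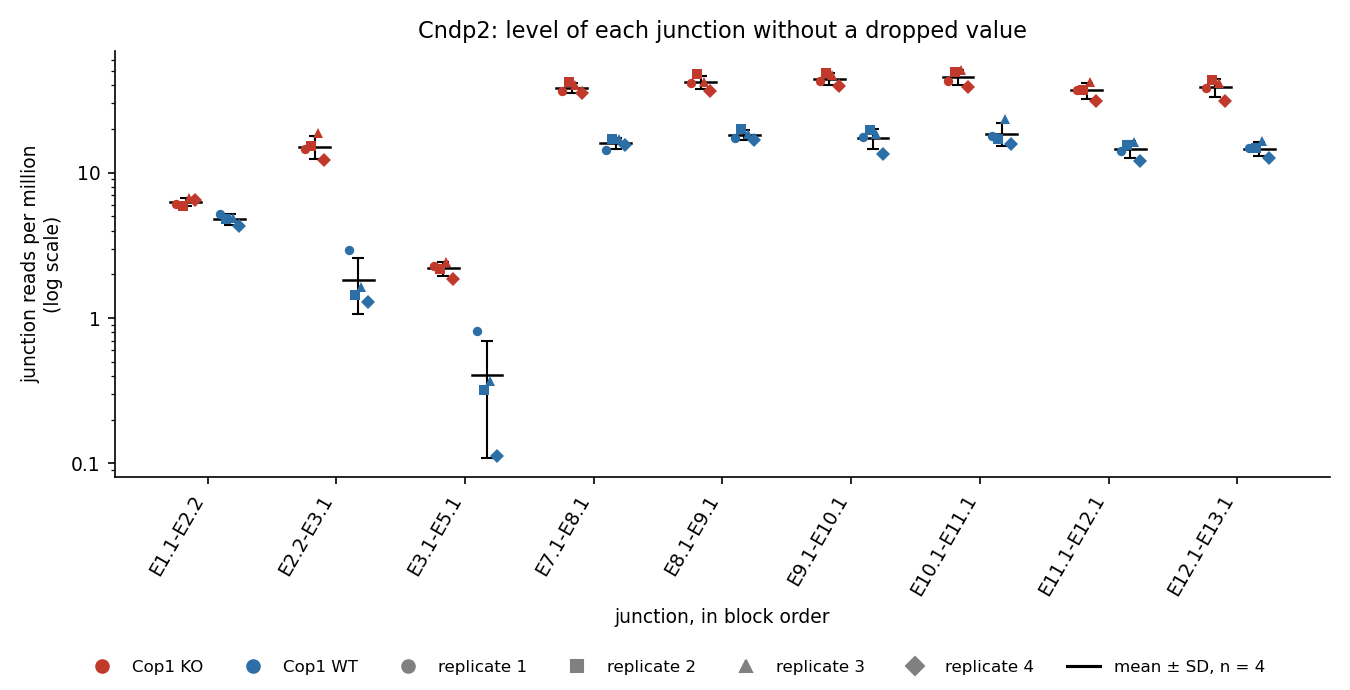
Junction RPM (log axis) of the 9 Cndp2 junctions without a dropped value, in block order, for 4 Cop1 KO (red) and 4 Cop1 WT (blue) libraries with mean ± SD. The gap between KO and WT is widest at E2.2-E3.1 and E3.1-E5.1, smallest at E1.1-E2.2 and even from E7.1-E8.1 on.

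Ptpre lies on chr7:135537481-135686293 of the plus strand. Blocks 1 and 3 are upstream exons of the long transcripts Ptpre-201 and Ptpre-207, and the short transcripts Ptpre-204 and Ptpre-206 start in block 7, from which the table holds no junction to block 8. Capitals mark the upstream exon at the first 2 junctions, of which E3.1-E5.1 is the gene's leading loss of share.
Ptpre E1.1-E3.1: ACCGGTCCCTGGGAGactatagccctcatt
Ptpre E3.1-E5.1: CCTCATTTCCCCTTGgtgcaccatggagcc
The 3 junctions upstream of block 6 overlapped between the groups: E1.1-E3.1 had 11.9, 7.096, 8.36 and 11.3 RPM in KO1 to KO4, against 11.9, 10.99, 10.6 and 8.42 RPM in WT1 to WT4. Ratios of the 3 were 0.890 to 0.988. The 17 junctions that leave blocks 6 to 24 had ratios of 1.31 to 1.60, and for 16 of them every KO library was above every WT library. The shares show the same step. E3.1-E5.1 took 2.49, 1.75, 1.98 and 2.85% of the gene in KO1 to KO4, against 3.35, 3.25, 4.12 and 3.27% in WT1 to WT4, without overlap. Together E1.1-E3.1 and E3.1-E5.1 averaged 40.3 ± 9.54% of the mean of 16 later junctions in KO and 63.3 ± 7.69% in WT. E20.1-E21.1, the leading gain, took 6.21 ± 0.451% of the gene in KO and 5.23 ± 0.814% in WT and overlapped. No junction of Ptpre had a dropped value.

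**Figure D3:**
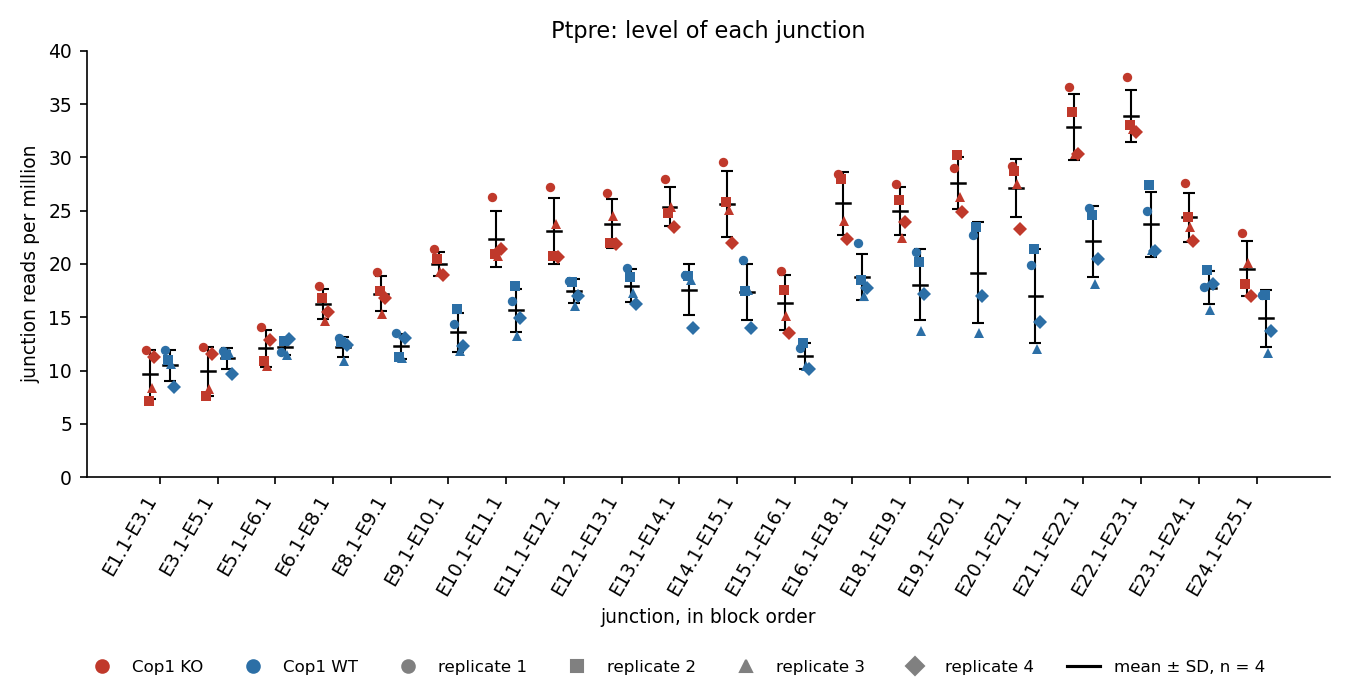
Junction RPM of the 20 Ptpre junctions, in block order, for 4 Cop1 KO (red) and 4 Cop1 WT (blue) libraries with mean ± SD. KO and WT libraries mix at the first 3 junctions and stand apart, with KO higher, at 16 of the 17 junctions that leave blocks 6 to 24.

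Klhdc4, a kelch-repeat protein gene on chr8:121796313-121829569 of the minus strand, had a junction read in the 4 KO libraries and in no WT library. E7.1-E8.1 had 201, 274, 209 and 20 reads in KO1 to KO4 and 0 reads in each WT library. It was singled out after its values were seen, since its WT zeros count as dropped values. Block 7 is a 45-base exon at chr8:121805276-121805320 that opens the noncoding transcript Klhdc4-203, and it takes the place of block 6 before block 8. Capitals mark the upstream exon at each junction.
Klhdc4 E6.1-E8.1: CCATGAAAGTGCAAGggactacatctacta
Klhdc4 E7.1-E8.1: CTGGGTAGGAAATGGggactacatctacta
The whole of block 7, in capitals, with the first bases of block 8 reads as follows.
Klhdc4 block 7: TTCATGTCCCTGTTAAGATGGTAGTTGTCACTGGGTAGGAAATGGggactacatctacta
The KO mean was 9.32 ± 6.21 RPM, with 0.890 RPM in KO4. If the WT zeros are counts of 0, a floor of 3 reads per WT library, 0.157 RPM on average, puts the KO mean at least 59.2-fold higher, or at least 77.1-fold without KO4, and 0 reads beside 671 to 759 reads of the gene's other junctions allow a WT share of up to 0.447%. If they are dropped values, neither bound holds, and these readings cannot be told apart here. E6.1-E8.1, from the coding transcripts, was at 7.96 ± 1.04 RPM in KO and 6.18 ± 0.553 RPM in WT, and the 5 junctions up to block 8 that belong to full-length transcripts and had no dropped value had ratios of 1.08 to 1.29. The rare skip E5.1-E8.1 had 15 reads over KO1 to KO3 and none in KO4 or WT.

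Past block 8 the junctions E8.1-E9.2 and E11.2-E12.2 did not split the libraries alike, as KO4 differed between them. In the match used, Klhdc4-203 ends in block 11 and is not among the transcripts that hold E11.2-E12.2. E8.1-E9.2 had 2, 1, 2 and 12 reads in KO1 to KO4, against 113, 103, 131 and 103 reads in WT1 to WT4. These KO values meet the rule for dropped values in KO1 to KO3, and such values occur across the table in both groups (5.85 to 6.43% of values in KO libraries and 5.89 to 6.71% in WT libraries, among junctions that reached 100 reads). E11.2-E12.2 had 19.5, 32.7, 25.9 and 9.26 RPM in KO1 to KO4, against 8.96, 8.55, 7.46 and 7.41 RPM in WT1 to WT4. Its share of the gene was 38.3, 46.1, 43.4 and 19.6% in KO1 to KO4, against 25.5, 21.2, 19.1 and 19.7% in WT1 to WT4. KO4 lay within the WT range: the KO mean was 36.8 ± 11.9% with it and 42.6 ± 3.93% without it, and the WT mean was 21.4 ± 2.92%. E1.5-E2.2 had a lower share, at 14.4 ± 3.29% in KO (12.8 ± 0.339% without KO4) and 19.6 ± 3.71% in WT, while its level in RPM differed by a ratio of 1.08. With dropped junctions in the denominator its share difference was -1.81 points in place of -5.15.

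**Figure D4:**
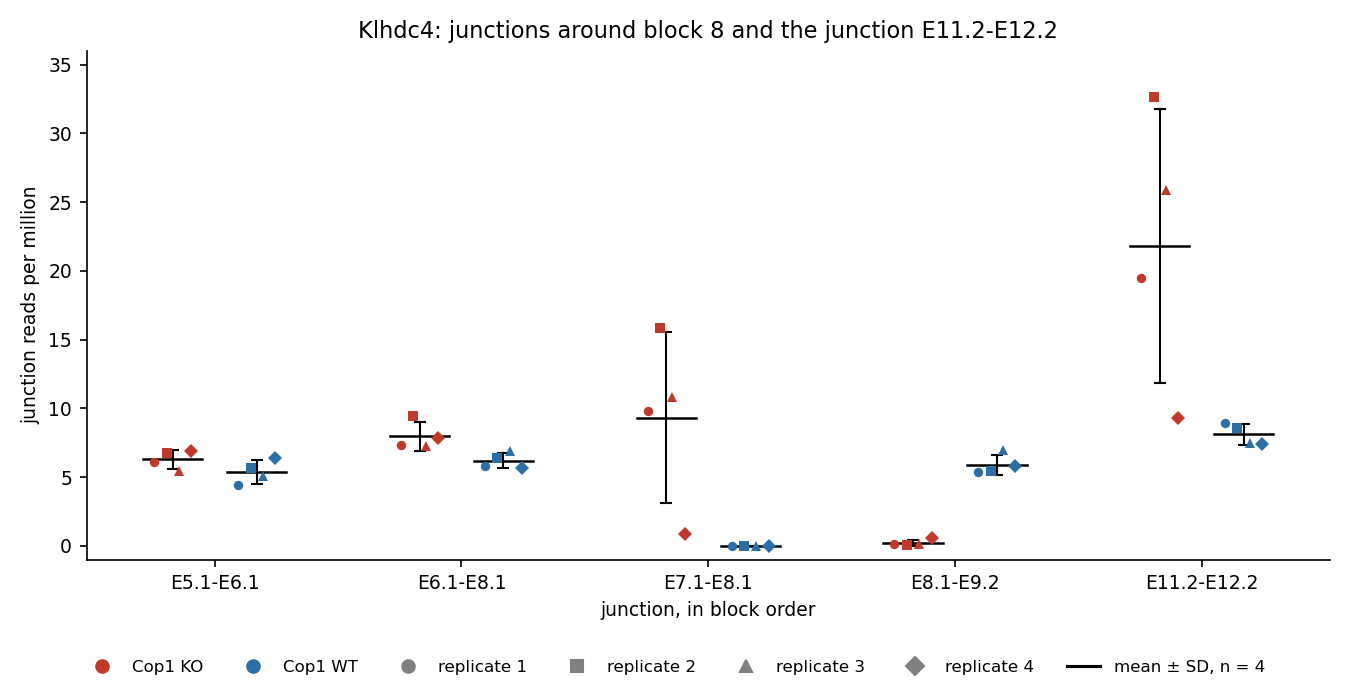
Junction RPM of 5 Klhdc4 junctions in 4 Cop1 KO (red) and 4 Cop1 WT (blue) libraries, with symbols for replicate numbers and bars for mean ± SD. E7.1-E8.1 is at 0 in all WT libraries and E8.1-E9.2 is near 0 in all KO libraries, and KO4, at 9.26 RPM, lies just above the highest WT library (8.96 RPM) at E11.2-E12.2.

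Summed levels of the genes are a second readout of the same libraries. Cndp2, Lrrfip1, Klhdc4 and Ptpre were higher in every KO library than in any WT library, Dgkz and Srebf1 were lower in every KO library, and Rrbp1 overlapped. Over all genes the sums of 10.9% were higher in every KO library and those of 18% lower in every KO library. Dgkz had 198 ± 19.2 RPM in KO and 274 ± 42.8 RPM in WT, Srebf1 87.6 ± 10.2 in KO and 121 ± 9.04 in WT, and Rrbp1 192 ± 17.4 in KO and 188 ± 6.87 in WT. Lrrfip1 had 135 ± 11.9 RPM in KO and 101 ± 12.99 RPM in WT, and Ptpre 438 ± 38.3 in KO and 321 ± 36.4 in WT. Klhdc4 had 57.2 ± 10.5 RPM in KO and 38.0 ± 2.24 RPM in WT. That sum includes the junction E11.2-E12.2, at 21.8 ± 9.95 RPM in KO and 8.09 ± 0.780 RPM in WT. Without this junction the Klhdc4 sums of the KO and WT libraries overlap. The gene level test over the table (limma) called 2264 of 11003 genes, or 20.6%, with 934 (8.49%) higher and 1330 (12.1%) lower in KO; with TMM scaling the split was 1086 higher and 1017 lower.

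Averages per well-read junction (at least 100 scaled reads on average, no dropped value) set the genes side by side only roughly. They cover 20 of 20 junctions in Ptpre but 6 of 29 in Lrrfip1 and 12 of 37 in Dgkz, alternative first exons among them. The order in KO began with Cndp2 (33.5 ± 3.44 RPM), Rrbp1 (22.9 ± 2.16), Ptpre (21.9 ± 1.92) and Lrrfip1 (17.6 ± 1.44). Dgkz (15.4 ± 1.81), Srebf1 (13.9 ± 1.51) and Klhdc4 (9.37 ± 1.67) followed. Rrbp1 and Ptpre lay within 1 SD of each other there, and so did Dgkz and Srebf1. In WT the order was Rrbp1 (22.9 ± 0.794 RPM), Dgkz (21.7 ± 3.46), Srebf1 (19.2 ± 1.43), Ptpre (16.04 ± 1.82), Lrrfip1 (13.5 ± 1.28), Cndp2 (13.2 ± 1.33) and Klhdc4 (6.29 ± 0.389). Rrbp1 and Dgkz, Dgkz and Srebf1, and Lrrfip1 and Cndp2 were neighbours within 1 SD.

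The genes whose levels over the 8 libraries looked most like the members' are given as a description, with Pearson's r on log2(RPM + 1); the libraries share the KO and WT split and their depth. Cndp2 was closest to Plin2 (r = 0.996), which coats lipid droplets, and to Spryd3 (0.996). Dgkz was closest to Gimap5 (0.991) and Setd7 (0.990), Srebf1 to Taf1 (0.994) and Cnot1 (0.985), and Rrbp1 to Rnf121 (0.936) and 4833439L19Rik (0.929). Lrrfip1 was closest to Dusp6 (0.994), a phosphatase that turns off ERK, and the autophagy receptor Sqstm1 (0.992). Klhdc4 was closest to Dram1 (0.990) and Cpeb2 (0.986), and Ptpre to Ttc12 (0.987) and Galnt6os (0.983).

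Genes around the members were read from lists, all in the gene level test over 11003 genes, of which 12.1% fell and 8.49% rose. RNA-binding proteins that steer the choice of splice sites come first. Of 81 tested splicing regulators 27 fell and 1 rose, with a median log2 fold change of -0.30, where the median of all genes tested was -0.07. Hnrnpd fell with 347, 356, 303 and 359 RPM in KO1 to KO4, against 513, 531, 494 and 555 RPM in WT1 to WT4 (log2 fold change -0.62 ± 0.078 SE, adjusted p = 0.00273). Srsf3, an SR protein that promotes exon inclusion, fell to 205 ± 13.3 RPM in KO, against 305 ± 11.9 RPM in WT (adjusted p = 0.00288), and its relative Srsf7 fell to 250 ± 24.8 RPM, against 388 ± 26.3 RPM (adjusted p = 0.00388). Hnrnpu fell to 924 ± 63.4 RPM in KO, against 1264 ± 52.5 RPM in WT (adjusted p = 0.00501). Pcbp4, the only one called higher, stood at 25.05 ± 2.35 RPM in KO and 11.6 ± 2.99 RPM in WT. The count of called regulators depended on the libraries: it was 14 without WT2, 15 without KO2 or KO3, 18 without WT4, and 36 without KO4. It was 45 with dropped junctions left out, and with the block 31 fell and 5 rose. With TMM scaling 20 fell and 2 rose, with edgeR 19 fell and 2 rose, and with DESeq2 26 fell and 8 rose. The relation between these genes and the junction shares was not tested.

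**Figure D5:**
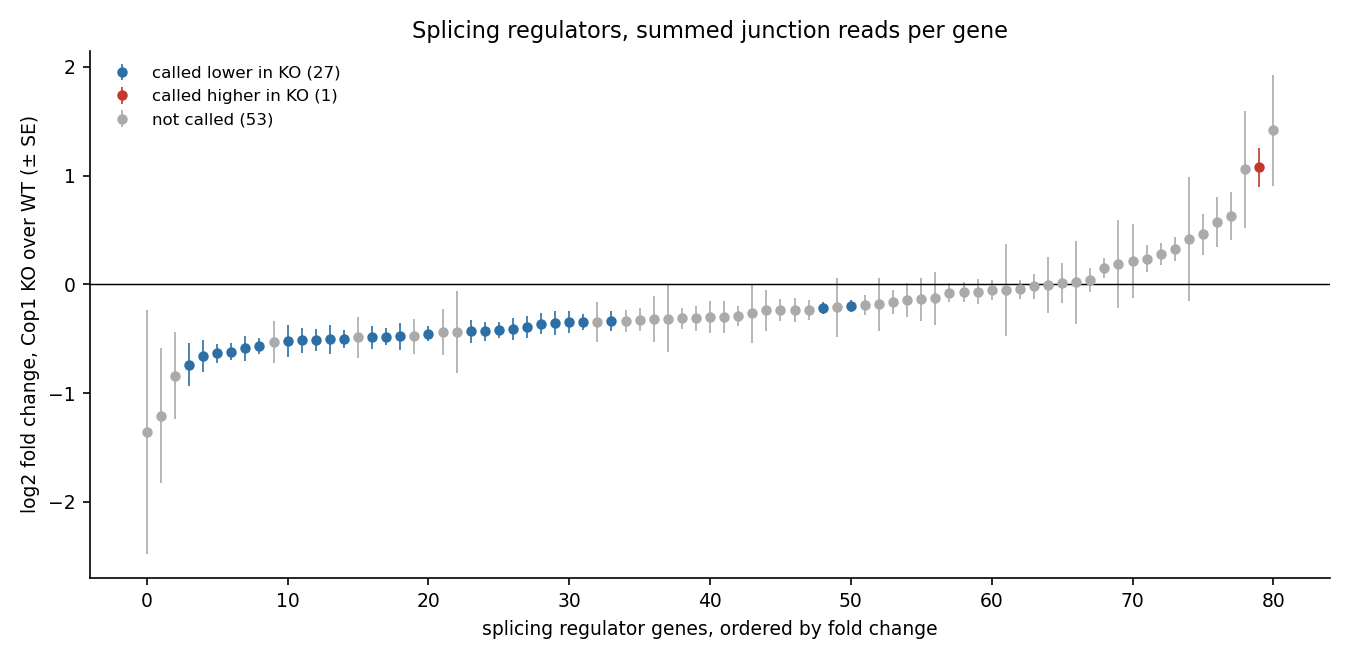
Log2 fold change of summed junction reads, Cop1 KO over WT, with its standard error, for the 81 splicing regulators tested, ordered by size and coloured by the call of the gene level test. Of these, 27 are called lower, 1 is called higher and 53 are not called.

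Among 30 tested genes of the SREBP pathway 8 fell and 1 rose, with a median log2 fold change of -0.29. The fatty acid desaturase Fads2 fell to 350 ± 88.3 RPM in KO, against 671 ± 32.1 RPM in WT (adjusted p = 0.00537), and Scd2, which makes monounsaturated fatty acids, fell to 404 ± 89.0 RPM, against 806 ± 138 RPM (adjusted p = 0.00826). Gpam, the first enzyme of glycerolipid synthesis, fell to 14.8 ± 1.55 RPM in KO, against 26.3 ± 3.77 RPM in WT (adjusted p = 0.00778). Cyp51, a sterol synthesis enzyme, was the one that rose, to 310 ± 44.3 RPM in KO, against 178 ± 26.1 RPM in WT (adjusted p = 0.0088).

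Of 30 tested genes of diacylglycerol signalling 5 rose and 1 fell, with a median of 0.02; with the block 8 rose and 4 fell. Rasgrp1, a Ras activator that diacylglycerol recruits, fell to 19.1 ± 2.71 RPM in KO, against 79.4 ± 20.5 RPM in WT (adjusted p = 0.00124). Prkd2, a kinase that diacylglycerol activates, rose to 181 ± 38.0 RPM, against 61.5 ± 13.8 RPM (adjusted p = 0.00264). Other diacylglycerol kinases were called higher: Dgka rose to 57.1 ± 14.1 RPM in KO, against 20.5 ± 6.99 RPM in WT (adjusted p = 0.00859), and Dgkg to 86.3 ± 22.9 RPM, against 33.5 ± 8.70 RPM (adjusted p = 0.0100).

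Genes around the other members follow. Lrrfip2, the paralog of Lrrfip1, was the only one of 9 tested partners called, and it rose to 109 ± 16.01 RPM in KO, against 59.7 ± 4.03 RPM in WT (adjusted p = 0.00366). Of 21 tested dipeptidases and aminopeptidases 3 rose and 4 fell, and with the block 6 rose and 4 fell. Npepps, a cytosolic aminopeptidase, rose to 338 ± 43.6 RPM in KO, against 169 ± 21.9 RPM in WT (adjusted p = 0.00263), and Rnpep fell to 163 ± 10.8 RPM, against 223 ± 10.3 RPM (adjusted p = 0.00707). Of 22 tested protein tyrosine phosphatases and partners Ptprc rose and Ptpn6 and Ptpn11 fell (adjusted p = 0.0317, 0.0305 and 0.0361). The calls of Ptprc and Ptpn11 were lost without any 1 of the libraries other than KO4 (adjusted p up to 0.087), that of Ptpn6 without KO1, KO2, WT1, WT2 or WT3 (up to 0.0812), and with TMM scaling neither Ptpn6 nor Ptpn11 was called (adjusted p = 0.0886 and 0.053). Of 28 tested genes of translocation into the endoplasmic reticulum only Stt3b, a subunit of the oligosaccharyltransferase, was called, at 535 ± 21.6 RPM in KO and 439 ± 29.3 RPM in WT (adjusted p = 0.0258), and this was lost without KO2, KO3, WT1, WT2 or WT3 (adjusted p up to 0.0763). None of 11 tested kelch-domain genes and cullin subunits was called by limma, edgeR or DESeq2, and 2 had an unadjusted p under 0.05 in limma. Their most abundant members were Cul3, at 211 ± 9.81 RPM in KO and 208 ± 5.95 RPM in WT, and Klhdc3, at 167 ± 17.8 RPM in KO and 186 ± 11.9 RPM in WT. Over these 7 lists together 27 of 151 genes (17.9%) were called, where 20.6% of all genes were. The count was 41 when blocked on replicate numbers, with 3084 over all genes, and 45 without KO4 and WT4, with 2734 over all genes.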

How the data were processed

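The authors deposited 1 table of normalised signal per exon junction, named by AltAnalyze blocks per the file headers. Trimmomatic 0.39, kallisto and the mm10 build are named in the submitters' processing notes, with no junction aligner or filter stated there. Per the labels, libraries were strand-specific from 2 µg RNA. Tested on the values, each deposited signal was 1 more than the read count, divided by library total and by 60 nt, with 0 reads at a common floor; whole reads came back for 100% of values above it within 0.001 read. Totals of 17333302 to 22469109 reads limit precision to counting error shown by Wilson intervals (95%).

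The 7 genes and the gene lists were chosen with earlier results of these data known. Leading junctions had a mean share of at least 1% in a group and no dropped value; junctions sharing a block with them, up to 4 genes per list by adjusted p (or 2 by mean) and 2 most alike genes were named too. Not every one so selected is printed, and ratios to later junctions were chosen after seeing values. Likeness and summed levels of members use sums without dropped junctions; list genes use all junctions. Dropped values were 6.25% of values over the 56315 junctions with 100 or more scaled reads in a library.

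Gene sums were tested with limma 3.58.1 (trend, robust) on log2(RPM + 1) where a gene averaged 1 RPM or more, and junction use with diffSplice on log2(RPM + 0.05) over junctions that averaged 100 or more scaled reads without any dropped value (Simes p per gene), both with Benjamini-Hochberg adjustment at 0.05. Fold changes on that scale understate low genes. edgeR 4.0.16 and DESeq2 1.42.0 on recovered reads, TMM, other pseudocounts, filters and left-out libraries were alternatives. The tests were tried on simulated data first. Replicate numbers paired the libraries: deviations from group means correlated at 0.316, 0.293, 0.356 and 0.550 between libraries 1, 2, 3 and 4, and at most 0.146 between different numbers. Adjusted p-values printed for single genes come from limma without the replicate block and so leave this pairing out. Replicates differed beyond counting noise (lowest chi-square over its degrees of freedom 17.6), so none was counted as a library deposited more than once; this does not tell separate cultures from technical repeats. Symbols matched 13247 of 13378 identifiers. Sequences are from Gencode M21 transcripts and, for promoters, RefSeq; of the 7 genes only Cndp2 has none printed. The level of 1 marker of other cells is not reported here.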

Additional observations from a re-analysis of the deposited data

Results flagged for a closer look

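Leading junctions and related shares were examined in 43 groups of 4 libraries for a library far from the other 3 (Dixon's test at 95%), where chance alone gives about 1 in 20 groups. It held in 3 groups. For the Cndp2 junction E2.2-E3.1, WT1 had a share of 2.81% of the gene, above the other WT libraries at 1.29 to 1.41% and still below every KO library. For the Klhdc4 junction E1.5-E2.2, KO4 had a share of 19.3%, above the other KO libraries at 12.4 to 13.1% and within the WT range. For the Ptpre junction E3.1-E5.1, WT3 had a share of 4.12%, above the other WT libraries at 3.25 to 3.35%.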

How the results depend on the processing

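Across 240 recomputed values for 18 results, 209 kept their direction and stayed within 1 SD (shares) or 1.5 times (counts), 30 moved and 1 reversed. Of the 168 values for member shares 164 stayed so, but 9 of the 168 differed by over 1.5 times or reversed. With all junctions of the gene in the denominator, the share differences became 2.12 points for Dgkz E2.2-E6.1, 2.07 for Srebf1 E2.1-E4.1, -2.34 for Srebf1 E3.2-E4.1, 0.86 for Rrbp1 I2.2-E4.1 and -1.81 for Klhdc4 E1.5-E2.2 (-7.79 without both libraries numbered 4), and that of Rrbp1 I2.2-E7.1 reversed to 0.0464 points; fewer or more junctions in the denominator is the alternative's own construction. Leaving out 1 library at a time gave 1215 to 2991 called genes in the gene level test, 14 to 36 splicing regulators and 15 to 34 pathway genes. The junction use test called 9 genes, 83 at a mean of at least 50 scaled reads, 2 at 200, 145 with dropped junctions kept, 26 without both libraries numbered 4, 20 without KO4, and 8 to 20 over the left-out libraries; the cause was not tested. Leaving out dropped junctions raised the called splicing regulators to 45, and leaving out both libraries numbered 4 raised the pathway genes to 45. With the replicate block the junction use test called 19 genes and the pathway lists 41, and with the block and dropped junctions left out, an alternative chosen after seeing the data, the counts were 4024 genes, 52 splicing regulators and 55 pathway genes; the block also gave 8 higher and 4 lower diacylglycerol genes, 4 higher and 3 lower phosphatases, 2 higher translocation genes, 6 higher dipeptidase-list genes, 5 higher splicing regulators and 2 lower markers of other cells; the mean share differences are the same by construction. Lrrfip1 E28.1-E29.1 was 0.422 points without KO3, 1.03 without WT2 and 0.38 without WT3, and Ptpre E20.1-E21.1 was 0.653 without WT3. TMM scaling turned the split of called genes to 1086 higher and 1017 lower (51.6% higher), against 934 and 1330 (41.3% higher), and moved the median of all genes by under 0.1. Low reads limit junctions such as Cndp2 E3.1-E5.1 and Rrbp1 E5.1-E6.1.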
